A study of Mus musculus with 10 samples.

Results

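The gene group described here comprises 10 genes of the glucocorticoid receptor axis, namely *Nr3c1*, *Tsc22d3*, *Fkbp5*, *Zbtb16*, *Sgk1*, *Pdk4*, *Dusp1*, *Cdkn1a*, *Mt1*, and *Mt2*, which were listed by symbol among the 55426 genes of the RNA-Seq table. The rule that lists them uses no measured value, although it was written with earlier results of these data known, and all 10 were expressed above the limit for testing. RNA-Seq was performed on whole thoracic aortas from 3 control mice (*Prdm16*f/f without Cre) and 3 *Prdm16*SMKO mice (*Prdm16*f/f with *SMMHC*-CreERT2), in which tamoxifen had been given at 8 weeks of age to delete *Prdm16*, a zinc finger transcription regulator, in vascular smooth muscle cells (VSMCs). The Cre transgene lies on the Y chromosome, so the animals of this model are male, and the strain is C57BL/6J. The hour and the age at harvest, and whether the control mice received tamoxifen, are not given in the sources used here. The ChIP-Seq cells were primary mouse fibroblasts, not VSMCs. They had taken up a lentivirus that expressed PRDM16 with a Flag tag, or its vector alone, for 48 hours, were kept in puromycin (2 μg/mL) over 1 week, and gave 1 anti-Flag library per condition.

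Glucocorticoids are adrenal steroids whose blood level follows the time of day and rises under stress. The glucocorticoid receptor, encoded by *Nr3c1*, waits in the cytoplasm in a complex with HSP90 and its cochaperones, and with hormone bound it moves to the nucleus and binds response elements in DNA, classically an inverted repeat of the hexamer AGAACA. In arteries this hormone is known to enhance the response to vasoconstrictors, and in many peripheral tissues it helps to set the phase of the circadian clock. The response genes studied here serve feedback on the receptor (*Fkbp5*), anti-inflammatory and transcriptional control (*Tsc22d3*, *Zbtb16*), kinase signaling and fuel choice (*Sgk1*, *Pdk4*, *Dusp1*), the cell cycle (*Cdkn1a*), and metal binding (*Mt1*, *Mt2*).

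Reference sequences upstream of these genes show which of them carry such letters near a start site. Promoter windows of 300 bases, from 250 bases before to 50 after each annotated transcription start site (TSS), were taken from RefSeq (GRCm38.p6) for 8 of the 10 genes. No such window of *Nr3c1* or *Zbtb16* was searched. Among 32851 such windows of 27025 genes, 3 held the full glucocorticoid response element, defined as AGAACA followed after 3 bases by its reverse complement, and 1 of these 3 was a window of *Sgk1*. A looser form, with the shorter GNACA in both arms, was held by 0.475% of windows, the hexamer AGAACA alone by 19.0%, and the metal response element TGCACNC or TGCGCNC by 25.7%, each on either strand. The sequences below run 5′ to 3′ on the strand of the gene, the first 2 with the full element or a single hexamer in capitals and the next 2 with metal response elements in capitals.
Sgk1 promoter, chr10:21993640-21993889, plus strand: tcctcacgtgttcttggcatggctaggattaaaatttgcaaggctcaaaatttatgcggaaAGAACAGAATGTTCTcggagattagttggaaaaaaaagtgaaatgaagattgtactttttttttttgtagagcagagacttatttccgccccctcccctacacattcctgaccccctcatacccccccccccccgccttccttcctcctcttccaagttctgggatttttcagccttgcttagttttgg
Tsc22d3 promoter, chrX:140600523-140600772, minus strand: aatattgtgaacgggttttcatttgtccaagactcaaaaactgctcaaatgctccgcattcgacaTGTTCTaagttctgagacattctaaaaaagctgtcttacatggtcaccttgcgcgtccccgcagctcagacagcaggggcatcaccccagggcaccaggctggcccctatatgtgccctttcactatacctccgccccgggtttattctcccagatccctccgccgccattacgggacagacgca
Mt1 promoter, chr8:94178839-94179088, plus strand: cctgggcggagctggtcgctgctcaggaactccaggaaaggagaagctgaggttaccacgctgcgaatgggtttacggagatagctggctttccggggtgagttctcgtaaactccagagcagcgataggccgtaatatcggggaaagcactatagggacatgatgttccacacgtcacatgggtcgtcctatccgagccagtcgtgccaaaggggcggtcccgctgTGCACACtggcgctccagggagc
Mt2 promoter, chr8:94172368-94172617, plus strand: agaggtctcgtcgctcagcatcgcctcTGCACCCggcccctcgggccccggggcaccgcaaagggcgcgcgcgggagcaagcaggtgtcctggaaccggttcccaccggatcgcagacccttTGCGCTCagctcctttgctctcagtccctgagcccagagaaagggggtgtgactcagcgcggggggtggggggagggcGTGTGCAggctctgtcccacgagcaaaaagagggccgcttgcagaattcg
The element of *Sgk1* lies at −189 to −175 relative to one of the 6 annotated TSSs of the gene and at −965 to −951 relative to the last of them, at 21994666. In *Tsc22d3* a single hexamer lies at −185 to −180 relative to the most upstream of 3 TSSs. The window of *Mt1* also held the looser element, at −94 to −82 relative to the TSS. Over the whole window of 300 bases, 3 metal response elements were counted in *Mt1* and 4 in *Mt2*, of which 1 and 3 lie in the upstream part shown. No window of *Fkbp5*, *Pdk4*, *Dusp1*, or *Cdkn1a* held the hexamer, which says only that these letters are not in these windows.

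The deposited expression values are TPM, a transcript abundance relative to all transcripts of a library, and they can be compared between genes because they are per transcript length. All 10 genes were well expressed in the aorta, with mean TPM over the 6 aortas from 10.8 for *Fkbp5* to 176 for *Mt1*. *Mt1* was followed by *Dusp1* (116), *Mt2* (72.9), *Nr3c1* (58.1), *Sgk1* (41.4), *Zbtb16* (40.5), *Pdk4* (29.7), *Cdkn1a* (19.3), and *Tsc22d3* (18.4). Of the 9 neighboring pairs in this order, 1 had ranges that did not overlap, since the lowest *Tsc22d3* value (14.3) exceeded the highest *Fkbp5* value (13.97). *Sgk1* was above *Zbtb16* in 3 of 6 aortas, *Zbtb16* above *Pdk4* in 3 of 6, and *Pdk4* above *Cdkn1a* in 3 of 6, so the order of these neighbors was not separated by the spread. The receptor itself was more abundant than 89.9% of the 15668 genes tested.

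**Figure D1:**
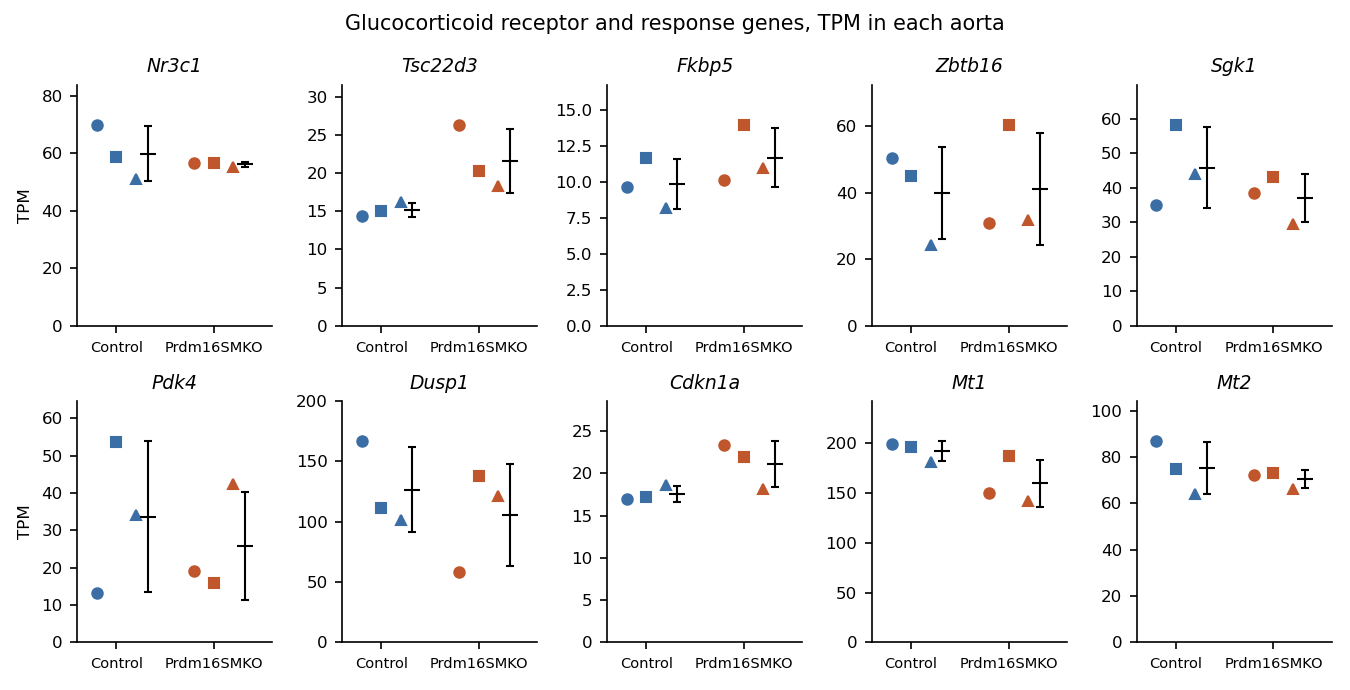
TPM (y axes, linear from 0) of each of the 10 genes in the control aortas (blue) and the Prdm16SMKO aortas (orange), with circle, square, and triangle for replicates 1, 2, and 3 of a group and the bar for the mean with SD (n = 3). In these values only Tsc22d3 had all 3 Prdm16SMKO aortas above all 3 control aortas, and Pdk4, Dusp1, and Zbtb16 varied by more than 2-fold within at least 1 group.

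The labels and the targeted gene were examined first. *Prdm16* itself was at 56.1, 47.6, and 40.3 TPM in the control aortas and at 23.3, 33.3, and 23.4 TPM in the *Prdm16*SMKO aortas, a log2 fold change of −0.85 ± 0.18 (SE) with an adjusted *P* of 0.072. All fold changes given here are *Prdm16*SMKO minus control on the log2(TPM + 0.1) scale, from limma with Benjamini-Hochberg adjustment over the 15668 genes that averaged 0.5 TPM or more. With 3 aortas per group, these *P* values weigh each difference against the variation among these aortas, moderated by a mean-variance trend over all tested genes. The smooth muscle markers were among the most abundant transcripts, with *Acta2* at 11024 to 12433 TPM in controls and 6455 to 8230 TPM in *Prdm16*SMKO aortas, and the summed TPM of 6 such markers was 20649 to 24074 against 13730 to 17732, without overlap and with 0 of the 6 called by limma (4 at an unadjusted *P* under 0.05, against 12.7% of all tested genes). Between 14.7% and 26.5% of TPM came from mitochondrial genes, and between 20.2% and 28.2% from the most abundant gene, *CT010467.1*. Over all tested genes the median difference was −0.12 on the log2 scale. Median ratio rescaling, in which an aorta is divided by the median of its gene-wise ratios to the average aorta, brought this to 0.0046. After this rescaling *Prdm16* had a log2 fold change of −0.73 with an adjusted *P* of 0.024 by limma. Since TPM are relative and the aortas are bulk samples, fewer cells of a type and less RNA per cell cannot be told apart.

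The comparison of the groups asked whether loss of PRDM16 in VSMCs was accompanied by a different level of the receptor or of its response genes. None of the 10 genes passed the threshold of an adjusted *P* of 0.05, where 1.07% of all tested genes did so. At an unadjusted *P* under 0.05 there was 1, *Tsc22d3*, against 12.7% of all tested genes. In the deposited TPM it was also the only one of the 10 whose groups did not overlap, all 3 *Prdm16*SMKO aortas being higher, against 19.0% of all tested genes without overlap in either direction and 4.08% in that direction. The median log2 fold change of the 10 genes was −0.08, close to that of all tested genes. After median ratio rescaling, which called 2.64% of all tested genes, 0 of the 10 were called, and *Tsc22d3* and *Cdkn1a* had no overlap between the groups, both higher, against 11.0% of tested genes in that direction.

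**Figure D2:**
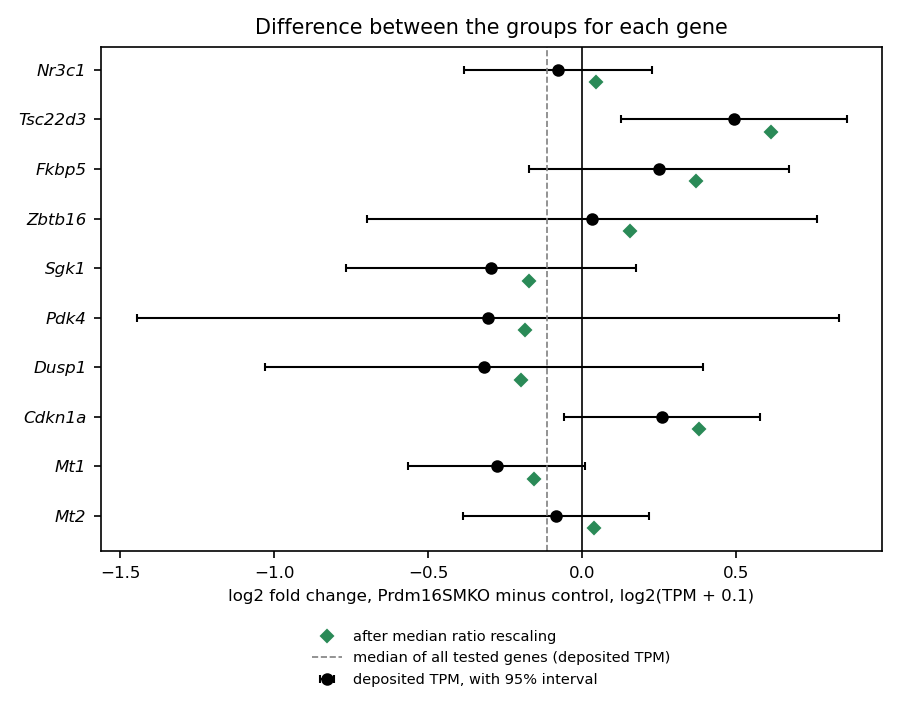
The log2 fold change of each gene (x axis, Prdm16SMKO minus control), with black circles and bars for the deposited TPM and their 95% moderated interval and green diamonds for the values after median ratio rescaling. The interval of Tsc22d3 lay above 0, those of the other 9 genes crossed 0, and rescaling moved every gene to the right by about the shift of all genes, from the dashed line to 0.

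*Nr3c1*, the receptor, was at 70.0, 58.6, and 51.1 TPM in the control aortas and at 56.7, 56.8, and 55.3 TPM in the *Prdm16*SMKO aortas. These *Prdm16*SMKO values all lay within the range of the controls. The log2 fold change was −0.08 ± 0.13 (adjusted *P* = 0.851), with a 95% interval from −0.38 to 0.22, and it was 0.04 after median ratio rescaling and 0.04 without Control replicate 1, so that no direction can be given. The 3 *Prdm16*SMKO values had an SD of 0.855 TPM against 9.49 TPM in controls, and after rescaling these SDs were 4.21 and 3.64 TPM. On the reference genome the gene spans 108877 bp on the minus strand of chromosome 18 and has 5 annotated TSSs.

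*Tsc22d3*, which encodes the glucocorticoid-induced leucine zipper GILZ, an anti-inflammatory mediator, showed the clearest separation. It was at 14.3, 14.99, and 16.2 TPM in the control aortas and at 26.3, 20.3, and 18.3 TPM in the *Prdm16*SMKO aortas. Every *Prdm16*SMKO aorta was above every control aorta, and *Prdm16*SMKO replicate 1 was the highest. The log2 fold change was 0.49 ± 0.16, with a 95% interval from 0.13 to 0.86, an unadjusted *P* of 0.014, and an adjusted *P* of 0.242, which does not pass the threshold. Over all 15 settings examined, including each aorta left out in turn, it lay between 0.34 (without *Prdm16*SMKO replicate 1) and 0.61, and the lowest adjusted *P* was 0.109. By rank of *P* it stood at 903 of 15668 genes. The table gives 1 value per gene, so the transcripts from its 3 TSSs cannot be told apart. The paper lists *Tsc22d3* as upregulated among its differentially expressed genes with a PRDM16 promoter peak, by a test it does not name. That call and the one made here thus differ.

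*Fkbp5* and *Zbtb16* are among the genes most readily induced by glucocorticoids in other tissues. *Fkbp5*, a cochaperone that lowers the affinity of the receptor for hormone, was at 9.63, 11.7, and 8.21 TPM in controls and at 10.1, 13.97, and 10.97 TPM in *Prdm16*SMKO aortas. The groups overlapped, and the log2 fold change was 0.25 ± 0.19 (adjusted *P* = 0.619). It was above 0 in all 15 settings, with 0.11 without *Prdm16*SMKO replicate 2 and 0.38 without Control replicate 2. *Zbtb16*, a zinc finger repressor, was at 50.5, 45.1, and 24.3 TPM in controls and at 30.9, 60.4, and 31.7 TPM in *Prdm16*SMKO aortas. It varied by 2.07-fold among controls and 1.95-fold among *Prdm16*SMKO aortas. Its log2 fold change was 0.03 ± 0.32 (adjusted *P* = 0.982), and it was −0.29 without Control replicate 3 and −0.28 without *Prdm16*SMKO replicate 2.

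*Sgk1*, *Pdk4*, and *Dusp1* link the hormone to signaling and metabolism. *Sgk1*, a kinase that raises sodium channel activity, was at 35.1, 58.2, and 44.0 TPM in controls and at 38.4, 43.2, and 29.3 TPM in *Prdm16*SMKO aortas. Its groups overlapped (log2 fold change, −0.30 ± 0.21, adjusted *P* = 0.591), with −0.11 without Control replicate 2 and −0.47 without Control replicate 1. *Dusp1*, a phosphatase that switches off MAP kinases, was at 167, 112, and 102 TPM in controls and at 58.1, 138, and 122 TPM in *Prdm16*SMKO aortas. *Prdm16*SMKO replicate 1 was the lowest of the 6 aortas and the other two *Prdm16*SMKO aortas lay within the control range. For *Dusp1* the log2 fold change was −0.32 ± 0.31 (adjusted *P* = 0.708) and 0.06 without *Prdm16*SMKO replicate 1. *Dusp1* is also an immediate-early gene, and the summed TPM of 22 other immediate-early genes was highest in Control replicate 1 (1474) and lowest in *Prdm16*SMKO replicate 1 (823), the same aortas as for *Dusp1*, with groups that overlapped (977 to 1474 against 823 to 1129 TPM). Of the single genes, *Fos*, *Jun*, *Zfp36*, and *Dusp5* were highest and lowest in these same aortas, and the others were not. *Jund*, the largest part of the sum in every aorta, was lowest in *Prdm16*SMKO replicate 3. The part of the immediate-early genes in the *Dusp1* values was not tested.

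*Pdk4*, the kinase that inhibits pyruvate dehydrogenase and so favors the use of fatty acids, was the most variable of the 10 genes. It was at 13.3, 53.6, and 34.1 TPM in controls and at 19.0, 15.9, and 42.3 TPM in *Prdm16*SMKO aortas, a 4.04-fold range among controls, and its SD among controls exceeded that of 95% of tested genes. The groups overlapped fully, the log2 fold change was −0.31 ± 0.50 (adjusted *P* = 0.844), and it was 0.13 without Control replicate 2. The summed TPM of 9 brown adipocyte markers, such as *Ucp1* and *Cidea*, was 459, 1861, and 909 in controls and 637, 533, and 1321 in *Prdm16*SMKO aortas. This sum, of which *Fabp4* was the largest part in every aorta, had the same order of the 6 aortas as *Pdk4*. Of the single markers, *Fabp4*, *Cidea*, and *Plin1* had that order, and *Ucp1*, *Adipoq*, *Cidec*, *Cox8b*, *Elovl3*, and *Dio2* did not. Per 100 TPM of these markers, *Pdk4* was at 2.88 to 3.76 TPM in controls and 2.99 to 3.20 TPM in *Prdm16*SMKO aortas. The mitochondrial genes *Cpt1b* and *Ucp3* of the fasting list had the same order of aortas, and *Pck1* and *Angptl4*, receptor targets of adipocytes, differed from it in the lowest pair of aortas. All 9 markers were above 0 in every aorta. Of the 8 tested, 1 (*Dio2*) had no overlap between the groups, against 19.0% of all tested genes. None of the 8 was called, against 1.07% of all tested genes. The part of adipocyte RNA in the *Pdk4* values was not tested.

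**Figure D3:**
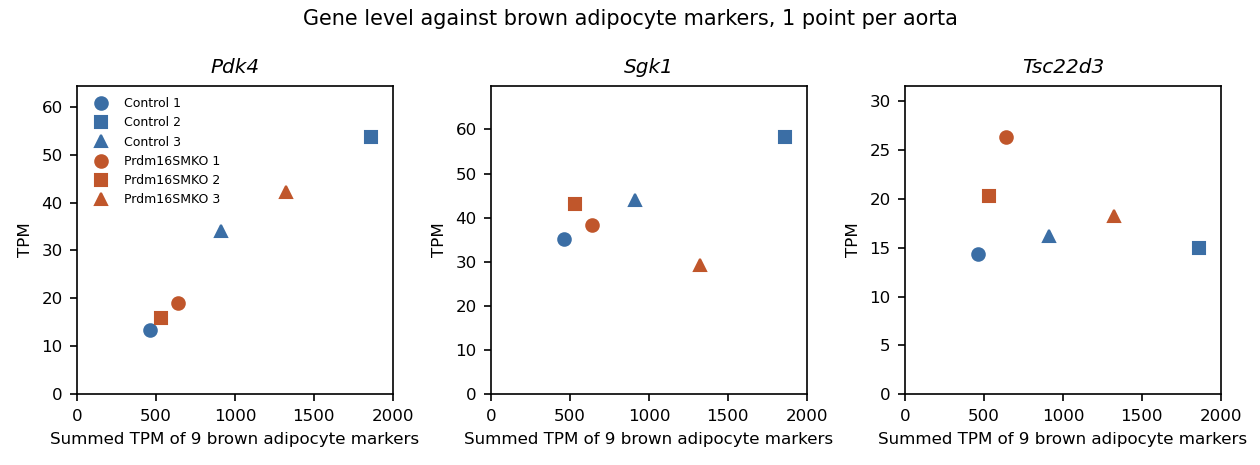
TPM of Pdk4, Sgk1, and Tsc22d3 (y axes) against the summed TPM of 9 brown adipocyte markers (x axis), 1 point per aorta, blue for control and orange for Prdm16SMKO. Pdk4 followed the marker sum in the same order over all 6 aortas, from 13.3 TPM at a marker sum of 459 to 53.6 TPM at 1861, while Tsc22d3 was highest in an aorta with a marker sum of 637.

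*Cdkn1a* encodes the cyclin-dependent kinase inhibitor p21, a target of both p53 and the glucocorticoid receptor. It was at 16.9, 17.2, and 18.6 TPM in controls and at 23.3, 21.9, and 18.1 TPM in *Prdm16*SMKO aortas. *Prdm16*SMKO replicate 3 fell below Control replicate 3, and the other two exceeded all controls. On the log2 scale the change was 0.26 ± 0.14, with an unadjusted *P* of 0.10 and an adjusted *P* of 0.484, and it was above 0 in all 15 settings. After median ratio rescaling the values were 14.6, 16.8, and 19.3 against 24.5, 20.9, and 20.4, without overlap. Of 10 other p53 targets, 0 were called and 3 had an unadjusted *P* under 0.05, against 12.7% of all tested genes, with a median log2 fold change of 0.08. The groups did not overlap for 5 of these 10 (3 higher, 2 lower), against 19.0% of tested genes, and for 7 after rescaling, against 21.7%.

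*Mt1* and *Mt2*, metallothioneins that bind zinc and copper, held the first and the third place by mean TPM. *Mt1* was at 199.6, 196, and 181 TPM in controls and at 151, 187, and 142 TPM in *Prdm16*SMKO aortas. *Prdm16*SMKO replicates 1 and 3 were below all controls and replicate 2 was within their range. Its change was −0.28 ± 0.13 on the log2 scale, with an unadjusted *P* of 0.057 and an adjusted *P* of 0.413, and it was below 0 in all 15 settings. *Mt2* was at 86.8, 74.9, and 64.3 TPM in controls and at 72.2, 73.2, and 66.2 TPM in *Prdm16*SMKO aortas, and the change of −0.09 ± 0.13 on the log2 scale (adjusted *P* = 0.835) became 0.04 after median ratio rescaling and 0.02 without Control replicate 1. *Mt1* exceeded *Mt2* in every aorta, by 2.298- to 2.82-fold in controls and 2.09- to 2.55-fold in *Prdm16*SMKO aortas. Of the other genes of the metal response list, *Mt3* and *Mt4* were at or near 0 TPM. Of the 4 tested, which include *Mtf1* and the zinc exporter *Slc30a1*, 0 were called. None of them had an unadjusted *P* under 0.05, against 12.7% of all tested genes.

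Genes whose level followed a given member most closely over the 6 aortas were sought for the 3 members with the lowest *P*, by the root mean square (RMS) difference of their scaled log2 values among the 13685 genes that averaged 1 TPM or more. For *Tsc22d3* these were *AW112010* (RMS difference, 0.205), the histocompatibility gene *H2-Q6* (0.214), and the T-box gene *Tbx1* (0.222). *H2-Q6* was at 2.10, 3.07, and 3.16 TPM in controls and at 16.2, 5.61, and 6.40 TPM in *Prdm16*SMKO aortas. The closest to *Mt1* were the ribosomal protein gene *Rpl11* (0.0781), *Aatf* (0.0875), and *Necap2* (0.0930). For *Cdkn1a* they were *Gm24950*, *Gm23971*, and *Gm23849*, which carry 1 identical set of values in the table and therefore count as a single pattern. None of these 9 genes was called.

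The machinery that folds and serves the receptor was described from a list of 19 genes, of which 18 were tested. None was called and 5 had an unadjusted *P* under 0.05, against 12.7% of all tested genes. The groups did not overlap for 7, all lower in *Prdm16*SMKO aortas, against 14.9% of tested genes in that direction, and the median log2 fold change was −0.22 against −0.12 for all genes. After rescaling 5 of the 18 had no overlap, all lower, against 10.7% of tested genes. The 3 with the largest difference among those without overlap were *Hsp90aa1*, the inducible HSP90 that holds the receptor ready for hormone (295, 247, and 335 TPM in controls, 194, 212, and 197 TPM in *Prdm16*SMKO aortas, log2 fold change −0.53, adjusted *P* = 0.107), *Hspa8*, a constitutive HSP70 (836, 744, and 818 against 510, 671, and 571 TPM, −0.46, adjusted *P* = 0.151), and *H6pd*, which supplies NADPH to the cortisone reductase HSD11B1 (36.2, 33.2, and 28.4 against 25.4, 22.3, and 23.8 TPM, −0.45, adjusted *P* = 0.202). *Hsd11b1* itself, which regenerates active hormone within cells, was at 8.20 to 12.5 TPM in controls and 6.88 to 12.1 TPM in *Prdm16*SMKO aortas. The inactivating enzyme *Hsd11b2* did not exceed 0.47 TPM in any aorta, and the mineralocorticoid receptor *Nr3c2* was at 5.75 to 6.19 and 5.88 to 8.51 TPM. The summed TPM of the 19 genes was 2132 to 2439 in controls and 1672 to 1980 in *Prdm16*SMKO aortas, and the smooth muscle marker sum was lower in the same 3 aortas. Its part in the difference was not tested.

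Among 30 further genes known as receptor targets in other tissues, 27 were tested, and 1 was called, against 1.07% of all tested genes. *Irs2*, an adaptor of the insulin receptor, fell from 34.3, 30.3, and 27.8 TPM in controls to 13.9, 17.3, and 12.6 TPM in *Prdm16*SMKO aortas, a log2 fold change of −1.08 ± 0.16 (adjusted *P* = 0.015), and 0 of the 27 were called without Control replicate 1, without Control replicate 2, without *Prdm16*SMKO replicate 1, or without the mean-variance trend. The groups did not overlap for 8 of the 27, with 3 higher and 5 lower, against 19.0% of tested genes, and the median log2 fold change was −0.03. *Per1*, a clock gene with a glucocorticoid response element, was at 24.2, 28.4, and 25.0 TPM in controls and at 37.5, 50.6, and 30.2 TPM in *Prdm16*SMKO aortas (0.57 ± 0.19, adjusted *P* = 0.237). *Fbxo32*, the muscle ubiquitin ligase atrogin-1, was at 63.8, 54.3, and 54.8 TPM in controls and at 41.4, 42.8, and 32.9 TPM in *Prdm16*SMKO aortas (−0.57 ± 0.14, adjusted *P* = 0.114, and 0.039 after median ratio rescaling). The target genes without overlap thus included both directions, with *Per1*, *Ddit4*, and *Cdkn1c* higher and *Irs2*, *Fbxo32*, *Tgm2*, *Lpin1*, and *Foxo1* lower. Among its differentially expressed genes with a PRDM16 promoter peak, the paper lists *Irs2*, *Fbxo32*, and *Plin4* as downregulated. Here the groups overlapped for *Plin4*, which was not called (−0.46 ± 0.16, adjusted *P* = 0.261 by limma).

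**Figure D4:**
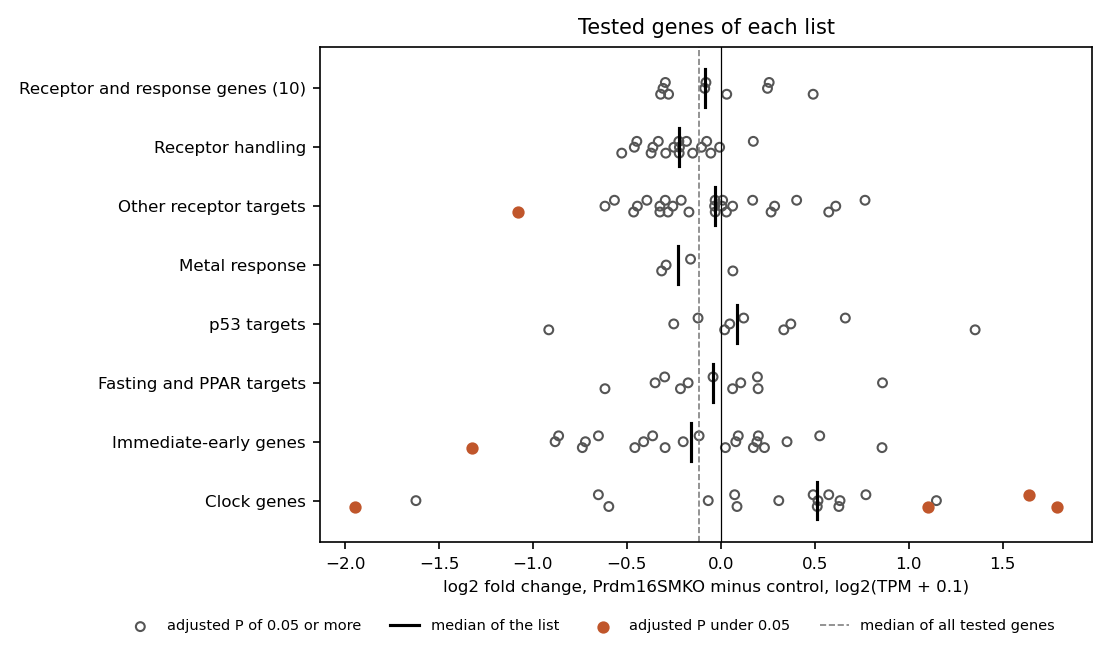
The log2 fold change (x axis, Prdm16SMKO minus control) of each tested gene in the 10 receptor and response genes and in 7 related lists, with filled points for an adjusted P under 0.05, a bar for the median of each list, and a dashed line for the median of all tested genes. No point is filled among the 10 genes, 1 is filled among the other receptor targets (Irs2), and 4 are filled among the clock genes.

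Clock genes are given beside these values because the level of glucocorticoids and of their targets follows the time of day. Of 19 clock genes, 4 were called, against 1.07% of all tested genes. *Npas2* fell (−1.94 ± 0.24, adjusted *P* = 0.008), and *Cry1* (1.64 ± 0.23, adjusted *P* = 0.012), *Ciart* (1.79 ± 0.27, adjusted *P* = 0.020), and *Bhlhe40* (1.11 ± 0.14, adjusted *P* = 0.009) rose. *Cry1* was at 1.65, 2.03, and 2.02 TPM in controls and at 5.76, 7.75, and 5.09 TPM in *Prdm16*SMKO aortas, without overlap. None of the 19 was called without the mean-variance trend, and 3 to 4 were called with 1 aorta left out. Of the immediate-early genes, 1 of 22 was called, the nuclear receptor *Nr4a1* (−1.32 ± 0.20, adjusted *P* = 0.020), which was not called without Control replicate 1, without Control replicate 2, without a filter on low TPM, or without the mean-variance trend. Of 11 fasting and PPAR targets, 0 were called (2 at an unadjusted *P* under 0.05, against 12.7% of all tested genes).

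The ChIP-Seq peak list of Flag-tagged PRDM16 addressed whether PRDM16 can be found at these genes. Peaks were called by the authors in 1 library each. A peak is therefore described by its presence and its deposited fold enrichment, without a replicate or a test. For the depth, the paper gives an average of paired reads over its ChIP-Seq samples, and that of each library alone is not given. Of the 10 genes, 7 had a peak centered within 2 kb of a TSS, against 29.1% of the 21000 protein-coding RefSeq genes and 49.7% of those that averaged 10 TPM or more in the aortas, a level that all 10 exceed. A peak in the gene or within 50 kb of it was found for 8 of the 10, against 59.5% of protein-coding genes. The genes also differ in their number of TSSs, from 1 for *Fkbp5*, *Pdk4*, *Dusp1*, *Mt1*, and *Mt2* to 6 for *Sgk1*, and a peak near any of them was counted. In total 20 of the 11271 PRDM16 peaks lay in or within 50 kb of a member, and none of the 67 peaks of the vector library did. With so few vector peaks, their absence near the members cannot tell the libraries apart.

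**Figure D5:**
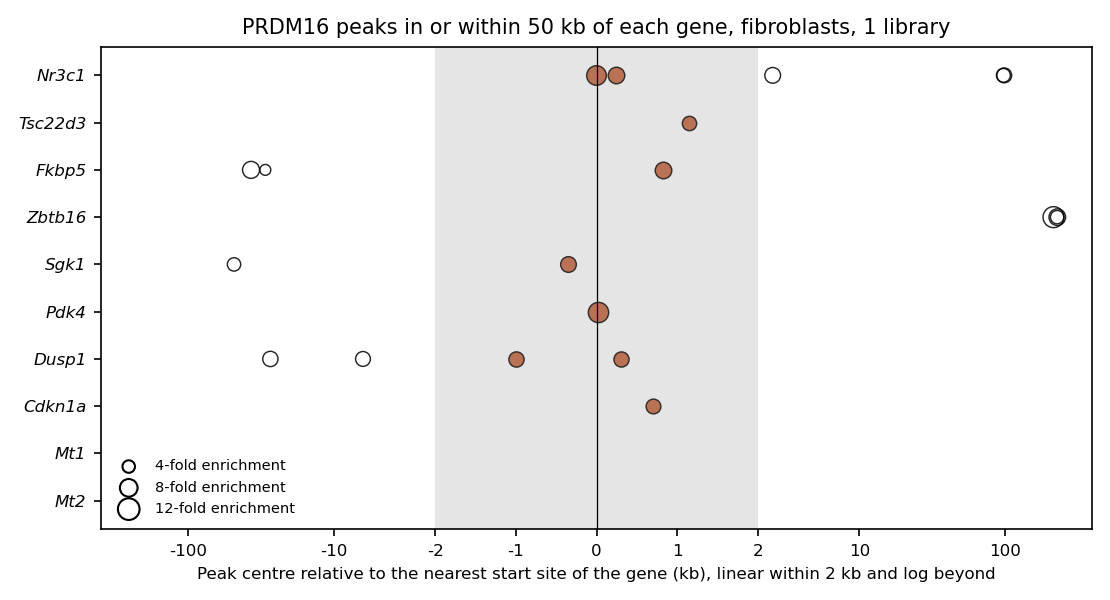
Position of the 20 PRDM16 peaks in or within 50 kb of the 10 genes, as the distance in kb of the peak center from the nearest start site of that gene (x axis, linear within 2 kb and logarithmic beyond, positive values downstream in the direction of transcription). Orange points are promoter peaks, open points are other peaks, and the area grows with the fold enrichment, which was 10.5 at Pdk4. Mt1 and Mt2 have no point.

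The strongest promoter peak lay at *Pdk4*. It was 660 bp long (GRCm38, chromosome 6, 5495934 to 5496593), covered the TSS at 5496278, and had a fold enrichment of 10.5, above that of 97.6% of all peaks. The 250 bases upstream of this TSS are shown because the peak covers all of them. The capitals mark the core AGATAA, a letter match for GATA factors that 11.2% of all promoter windows held. The 300-base window at the summit of this peak did not hold it, whereas 6.48% of such windows at all peaks did.
Pdk4 promoter, chr6:5496279-5496528, minus strand: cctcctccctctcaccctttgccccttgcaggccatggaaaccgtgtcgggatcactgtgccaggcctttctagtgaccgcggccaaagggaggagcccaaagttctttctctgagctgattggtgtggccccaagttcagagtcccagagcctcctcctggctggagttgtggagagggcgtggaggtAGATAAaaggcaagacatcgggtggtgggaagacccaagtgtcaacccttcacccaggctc

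At *Fkbp5* the promoter peak was centered 830 bp downstream of the TSS, in an intron, from 28484954 to 28485685 on chromosome 17, with a fold enrichment of 7.03. A window of 300 bases around its summit, on the strand of the gene, held the looser form of the glucocorticoid response element (capitals), which 0.595% of such windows at all peaks held. The element lies at 28484953 to 28484965, across the downstream edge of the called peak and away from its summit at 28485092.
Fkbp5 peak, chr17:28484942-28485241, minus strand: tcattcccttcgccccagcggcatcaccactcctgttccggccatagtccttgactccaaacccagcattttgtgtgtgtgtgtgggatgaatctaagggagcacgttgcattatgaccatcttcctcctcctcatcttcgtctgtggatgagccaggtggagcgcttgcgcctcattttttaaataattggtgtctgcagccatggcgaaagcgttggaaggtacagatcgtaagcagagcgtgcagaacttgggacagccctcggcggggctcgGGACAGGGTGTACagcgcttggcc
Another peak with a fold enrichment of 7.38 lay 37.1 kb upstream of *Fkbp5* and nearer to the TSS of *Armc12*. *Sgk1* had a promoter peak of 370 bp, from 21994131 to 21994500 on chromosome 10, with a fold enrichment of 6.33. It was centered 351 bp before the last TSS and began 416 bp downstream of the glucocorticoid response element shown above, which it did not cover. *Dusp1* had promoter peaks centered 303 bp after and 997 bp before its TSS at 26508472 on chromosome 17, with fold enrichments of 5.89 and 5.98, and one of 5.63 at 6.28 kb upstream. The remaining peaks, 27.3 kb upstream of *Dusp1*, 29.5 kb upstream of *Fkbp5*, and 48.5 kb upstream of *Sgk1*, had fold enrichments of 5.98, 3.03, and 4.57, and that near *Fkbp5* had a −log10 q of 1.54, short of the stated q threshold of 0.01. The first of these peaks lay nearer to the TSS of *Ergic1* and the second nearer to that of *Armc12*.

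*Tsc22d3*, the gene with separate groups in the aorta, had a single peak near the median of the list. This peak of 340 bp (chromosome X, 140599211 to 140599550) was centered 1142 bp downstream of the most upstream TSS, and had a fold enrichment of 5.27, above 50.3% of peaks, and was not counted with a promoter window of 1 kb. *Cdkn1a* had 1 peak of 1204 bp on the same chromosome as *Fkbp5*, from 29093865 to 29095068, centered 697 bp after its second TSS, with a fold enrichment of 5.58. *Zbtb16* had no promoter peak, and its 3 peaks lay 33.2 to 46.6 kb beyond the end of the gene, all nearer to *Nnmt* than to any other coding TSS, the strongest with a fold enrichment of 11.3. *Mt1* and *Mt2*, neighbors on chromosome 8, had none within 50 kb. A missing peak in 1 fibroblast library, whose own depth is not given, does not show that PRDM16 is absent from the gene.

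At *Nr3c1* there were 2 promoter peaks on chromosome 18, one of 933 bp from 39488814 to 39489746 that covered a TSS and had a fold enrichment of 9.84, above 96.5% of peaks, and one of 534 bp from 39490168 to 39490701 with a fold enrichment of 7.03. Another peak, with a fold enrichment of 6.33, was centered in a coding exon, and 2 weaker ones lay 19.4 and 20.8 kb beyond the end of the gene. For *Nr3c1* and *Pdk4*, which hold the strongest promoter peaks of the 10 genes, the *Prdm16*SMKO aortas all lay within the range of the control aortas in the deposited TPM. After rescaling, *Prdm16*SMKO replicate 3 was at 62.2 for *Nr3c1*, above the highest control (60.2).

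Of the 20 windows of 300 bases at the summits of these peaks, none held the full glucocorticoid response element, 1 held the looser form, and 3 held the hexamer, which 12.2% of all 11258 peak windows on assembled chromosomes held. Among the related lists, a promoter peak was found at 14 of 19 genes that serve the receptor, at 16 of 30 further receptor targets, at 13 of 19 clock genes, at 18 of 22 immediate-early genes, and at 0 of 6 genes of the metal response list, against 29.1% of protein-coding genes and 49.7% of those that averaged 10 TPM or more. *Irs2* and *Fbxo32* were among the targets with a promoter peak and *Per1* was not.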

How the data were processed

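The authors deposited TPM for each aorta, and the submitters' processing notes name STAR 2.7.8a and RSEM 1.3.3 and the build GRCm38 without saying which step used which. TPM hold no counts, so the depth is unknown here and no counting interval was made. Genes that averaged 0.5 TPM or more were tested with limma 3.58.1 in R 4.3.3 (lmFit, eBayes with trend) on log2(TPM + 0.1), 3 against 3, which understates the change of low genes. The authors mapped the ChIP-Seq reads with bowtie2, called peaks with MACS2 at q of 0.01, and deposited each peak's position, fold enrichment as a ratio over background, and −log10 q, which were used as deposited. Its score and −log10 p were not used, the control library of MACS2 is not given in the sources used here, and the IgG libraries were not analysed here. Peaks were placed by their center against curated RefSeq transcripts (GRCm38.p6), and gene spans are those of RefSeq. Sequences came from RefSeq through samtools 1.23.1, and motifs were searched by letters on both strands.

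The members and the lists were chosen with earlier results of these data known. Named genes were all 10 members, every called gene of another list, the 3 with the largest change among those without overlap that averaged 1 TPM or more in the receptor, target, and clock lists, and the 3 closest in pattern to the 3 members of lowest *P*. Other genes, such as those given for adipocytes or for enzymes of the hormone, were named after their values were seen. The procedure was tested on simulated data. Alternatives were other pseudocounts (1 and 0.01), filters, 3 rescalings, no trend, a replicate block, leaving out each aorta, and other peak windows.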

Additional observations from a re-analysis of the deposited data

How the results depend on the processing

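None of the 10 genes passed the threshold under any of the 15 settings, and 138 of 150 alternative values kept direction. The log2 fold changes that changed sign were those of *Nr3c1* and *Mt2* under rescaling, by median ratio (0.043 and 0.037), without mitochondrial genes and the most abundant gene (0.020 and 0.014), and by quantile normalization (0.069 and 0.068). With 1 aorta left out at a time, *Nr3c1* ranged from −0.19 to 0.039, *Mt2* from −0.19 to 0.023, *Zbtb16* from −0.29 to 0.23, *Pdk4* from −0.87 to 0.13, and *Dusp1* from −0.56 to 0.064. The cause of these changes was not tested beyond the aorta left out. All genes called numbered 168 (61 higher, 107 lower), against 413 by median ratio (200 higher, 213 lower), 370 without mitochondrial genes and the most abundant gene (152 higher, 218 lower), 392 by quantile normalization (189 higher, 203 lower), 48 without the trend, 110 without a filter (which adds low genes to the test), and 91 to 141 with 1 aorta left out.

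Calls in the lists moved as follows. Other receptor targets had 2 calls under each of the 3 rescalings, 0 without the trend, and 0 to 1 with 1 aorta left out. Clock genes had 9 by median ratio, 8 without mitochondrial genes and the most abundant gene, 8 by quantile normalization, and 0 without the trend. The p53 targets had 2 under each of the 3 rescalings and 2 with the replicate block, and 0 to 1 with 1 aorta left out. Fasting and PPAR targets had 1 under each of the 3 rescalings and 1 with a mean TPM of at least 1. Immediate-early genes had 0 without a filter, 0 without the trend, and 0 to 1 with 1 aorta left out. No pairing by replicate number was seen in the values, where same-numbered aortas had correlations of −0.0246, −0.0700, and −0.00896 of their deviations. Those of different-numbered aortas ran from −0.0764 to 0.0968. Such correlations cannot show whether the aortas were handled in pairs. With the replicate block 184 genes and 0 of the 10 members were called. Promoter peaks were found at 6 members with a window of 1 kb and at 7 with 5 kb, with summits, or with q of at most 0.001, and members with a peak in or near the gene were 7 within 10 kb and 8 within 100 kb. Precision is limited by 3 aortas per group and 1 library per ChIP-Seq condition.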
